A study of Mus musculus with 8 samples.

Results

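The leukocyte beta-2 integrin genes are Itgal, Itgam, Itgax and Itgad, which encode the alpha chains CD11a, CD11b, CD11c and CD11d, and Itgb2, which encodes CD18, the beta chain they share. They were taken by symbol from the deposited expression table, where they are 5 of 12701 genes, and 5 of 5 passed the filter on low values that 11273 genes passed in all. Sorted lung cells labelled tissue-resident (alveolar) macrophages of C57BL/6 mice were profiled by RNA sequencing in 3 naive libraries, 2 libraries labelled d15 and 3 labelled d35. The d15 and d35 mice had received KP or KP-GFP cells, a line from mouse lung tumors, through the tail vein, and the labels do not say which of these a given library had. The growth protocol has lungs taken after 15 to 30 days, which leaves the d35 label outside that period. For each library, RNA of 20000 sorted cells was isolated, and 1 ng entered the low-input cDNA synthesis. The markers of the sorting gate are not given in the labels, so whether CD11b or CD11c was gated on is unknown. Nothing in the labels says that replicate libraries are from different mice, and the p-values below therefore measure spread among libraries that may be technical.

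An alpha chain reaches the cell surface only when paired with CD18, and the 4 pairs are LFA-1 (CD11a), Mac-1 or complement receptor 3 (CD11b), complement receptor 4 (CD11c) and CD11d/CD18. They bind adhesion molecules such as ICAM-1 and VCAM-1, fragments of complement C3 and fibrinogen, and are switched on from inside the cell by talin and kindlin-3. Alveolar macrophages of the healthy mouse lung are known as CD11c-high and CD11b-low, and CD11b is a usual mark of monocytes, neutrophils and interstitial macrophages.

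In the GRCm38 (mm10) annotation GENCODE M21, the 4 alpha-chain genes lay on the plus strand of chromosome 7. Itgal spanned 127296260 to 127335138, Itgam 128062640 to 128118491, Itgax 128129547 to 128150657 and Itgad 128154376 to 128223816. Itgam, Itgax and Itgad were close together, with 11.1 kb between Itgam and Itgax and 3.72 kb between Itgax and Itgad, while Itgal lay 728 kb before Itgam. Itgb2 was on the plus strand of chromosome 10, from 77530252 to 77565708. All 5 are protein-coding, with 30 exons in the longest transcript of Itgam and Itgax, 31 in that of Itgal and Itgad and 16 in that of Itgb2.

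Promoters are shown for Itgam and Itgax, the members matched in the RefSeq promoter table, which had the lowest and the highest level of the alpha chains. Each run covers 250 bases before to 30 bases after the RefSeq start site (GRCm38.p6, plus strand), Itgam at chr7:128062390-128062669 and Itgax at chr7:128129300-128129579. Capitals mark matches, on either strand, to a PU.1 core (GAGGAA), an Sp1 box (GGGCGG), a RUNX core (TGTGGT) or an AP-1 site (TGANTCA).
Itgam: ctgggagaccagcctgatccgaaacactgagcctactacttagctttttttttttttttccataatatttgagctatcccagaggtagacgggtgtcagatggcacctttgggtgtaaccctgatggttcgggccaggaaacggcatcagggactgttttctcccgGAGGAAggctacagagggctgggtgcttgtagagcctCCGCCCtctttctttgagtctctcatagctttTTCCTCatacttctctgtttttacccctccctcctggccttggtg
Itgax: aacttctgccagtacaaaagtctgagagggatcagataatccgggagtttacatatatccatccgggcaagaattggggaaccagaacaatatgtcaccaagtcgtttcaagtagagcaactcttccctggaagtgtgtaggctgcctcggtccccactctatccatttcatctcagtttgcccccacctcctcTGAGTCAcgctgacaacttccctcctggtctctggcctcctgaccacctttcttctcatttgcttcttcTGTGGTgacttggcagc
The Itgam run held the PU.1 core beginning at position -84 and, on the reverse strand, at -15, with the Sp1 box on the reverse strand at -47. In the Itgax run, the AP-1 site began at -56 and the RUNX core at 14 after the start. None of the matches overlapped another. Of 32851 RefSeq promoters cut to the same length, 26.0% held the PU.1 core, 34.7% the Sp1 box, 15.6% the RUNX core and 7.46% the AP-1 site, so only the AP-1 site was in fewer than 1 promoter in 10. A match describes these letters and is not a measured binding site.

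The libraries held between 27465745 and 39572173 reads, recovered as whole numbers from the deposited values. Values are in scaled CPM, the deposited signal per gene, and fold changes are differences of log2(scaled CPM + 1), which understate the change of low genes. All 15 listed alveolar macrophage markers were in the table and tested, and their sum, led by Lyz2, ran from 69577 to 74875 scaled CPM in naive, 90160 to 90430 at d15 and 95195 to 117120 at d35. By limma, 3 of the 15 rose at d15, where 2.37% of all tested genes did, and at d35 3 rose and 1 fell, where 9.86% rose and 6.32% fell. Those that rose were Pparg, Ear2 and Atp6v0d2 at d15 and Ear2, Car4 and Cd68 at d35. The one that fell was Siglecf, with 719 ± 36.6 scaled CPM (SD, n = 3) in naive, 574 ± 22.6 (n = 2) at d15 and 591 ± 47.1 (n = 3) at d35. Of the markers of other cells, the T and NK cell sum (led by Cd2) ran between 366 and 429 scaled CPM over the 8 libraries. The dendritic cell sum (led by Batf3) ran between 15.9 and 29.5. Of the 13 T and NK cell markers in the table, only 5 passed the filter on low values, and limma called 0 of these in any comparison. Of 6 tested dendritic cell markers, 1 fell at d15 and 1 rose at d35, where 2.00% and 9.86% of all tested genes did, and limma-voom called neither. Between d35 and d15, limma called 1 of the 6 higher, where 4.59% were. Of 6 genes listed for eosinophils, Epx, Prg2, Prg3, Ccr3 and Il5ra were not in the table. Only Siglece was, and it is not read here as a mark of eosinophils. In bulk libraries, a change in the number of cells of a type and a change in RNA per cell cannot be told apart.

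Per kilobase of the longest transcript, the scale on which genes can be compared, the naive order was Itgb2, Itgax, Itgal, Itgad and Itgam. Itgb2 had 786 ± 19.4 scaled CPM per kb (SD, n = 3). Its mean per kb over all 8 libraries, naive or not, exceeded that of 99.6% of the 11217 tested genes with a length. The percentiles below are likewise of the mean over all 8 libraries and not of the naive level. Itgax followed with 208 ± 2.43 per kb (percentile 97.8) and Itgal with 111 ± 5.33 per kb (percentile 94.8). These 3 genes were thus among the most abundant messages of the cells. Itgad was far lower, at 7.60 ± 1.25 per kb (percentile 39.9), and Itgam lowest, at 0.425 ± 0.0233 per kb (percentile 12.3). No naive library of a gene in this order overlapped the next. At d35, Itgad and Itgam no longer stood apart, with Itgad at 2.51, 1.38 and 5.66 per kb and Itgam at 2.54, 1.13 and 1.68 per kb, 2 ranges that overlap.

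**Figure D1:**
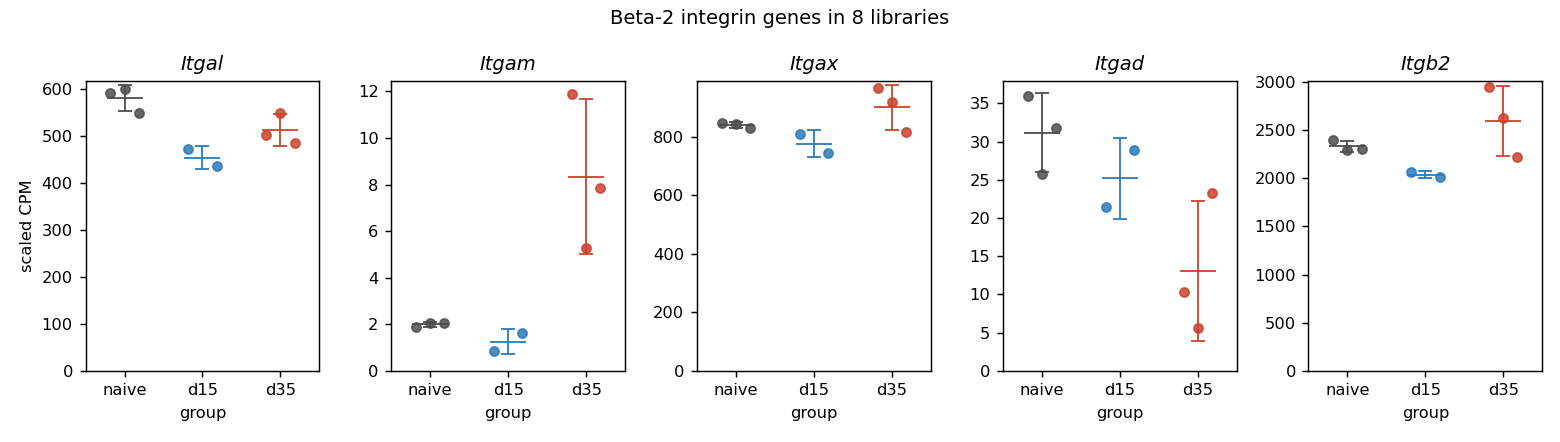
Scaled CPM (y axis, linear, from 0, a separate scale for each gene) of the 5 beta-2 integrin genes in naive, d15 and d35 libraries. Points are libraries, the long bar is the group mean and the whiskers 1 SD; the 3 d35 libraries of Itgam, between 5.28 and 11.9, lie above all others, and those of Itgad, between 5.64 and 23.2, lie below the naive ones.

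Itgam, the CD11b gene, rose at d35. It had 1.87, 2.04 and 2.07 scaled CPM in the naive libraries, 0.864 and 1.62 at d15, and 11.9, 5.28 and 7.86 at d35. The d35 libraries were all above every naive and d15 library, and the d15 libraries were below the naive ones. The means were 1.99 ± 0.109 (SD, n = 3), 1.24 ± 0.536 (n = 2) and 8.34 ± 3.33 (n = 3), so the d35 mean was 4.19 times the naive mean and 6.71 times the d15 mean. On the log2 scale the rise over naive was 1.58 (SE 0.247, limma adjusted p = 0.00336) and that over d15 was 2.02 (SE 0.276, limma adjusted p = 0.00204). Against naive, the d15 difference of -0.43 (SE 0.276, limma adjusted p = 0.342) did not pass. The counts behind these values were small, between 26 and 82 reads in the naive and d15 libraries and between 173 and 342 at d35.

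How much of the Itgam level belongs to Itgam itself is uncertain. A gene model on the same strand, Gm49368, overlaps it and shares 72.4% of the 50-base stretches of its longest transcript. Gm49368 has no row in the table used here, and how shared reads were counted is not given in the sources used here. The part of Gm49368 reads in the Itgam values of the 8 libraries was not tested.

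Some markers of other cells rose at d35 with Itgam and others did not, and their part in the Itgam rise was not tested. Of 17 tested markers of monocytes and interstitial macrophages, 9 rose at d35, and 0 fell by limma (3 at an unadjusted p under 0.05), where 9.86% of all tested genes rose and 6.32% fell. Their sum, led by Fn1, ran from 1706 to 2184 scaled CPM in naive, 1760.5 to 1883 at d15 and 2329 to 3758 at d35. The d35 library with the most Itgam, library 1, also had the highest sum (3758), and the one with the least, library 2, the lowest of that group (2329). The neutrophil, dendritic cell and alveolar macrophage sums ranked the d35 libraries in the same order, so it is not particular to this list. Ccr2, a chemokine receptor of classical monocytes, went from 16.1 ± 0.559 (SD, n = 3) in naive to 67.1, 23.9 and 35.7 in the d35 libraries. C1qb, a complement gene of interstitial macrophages, had 0.454, 1.77 and 1.57 in naive, 5.46 and 9.11 at d15, and 156, 43.8 and 98.5 at d35. Ly6c2, the Ly6C gene of classical monocytes, stayed at or below 1.35 scaled CPM in all 8 libraries, and Folr2 was not in the table.

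For neutrophils, 8 of 12 markers were in the table, and their sum, led by Mmp8, ran from 176 to 203 in naive, 150.5 to 223 at d15 and 136 to 285 at d35. Of the 7 tested, S100a9 and Il1r2 rose at d35, each highest in library 1 (5.92 and 6.54 scaled CPM), and limma-voom called neither. Ly6g, Retnlg, Ngp and Camp, which define mature or developing neutrophils, were not in the table. The epithelial keratins Krt8 and Krt18 also rose, from 0.262 ± 0.125 (SD, n = 3) and 0.214 ± 0.108 in naive to 15.0 ± 4.43 and 14.6 ± 6.40 (n = 3) at d35. Over the epithelial list, 2 of 11 tested markers rose and 1 fell at d35, where 9.86% and 6.32% of all tested genes did, and the sum, mostly Krt19, ran from 1446 to 1449 in naive, 1250 to 1363 at d15 and 1207 to 1338 at d35. Ccr2, C1qb, Ly6c2, Siglecf, Pparg, Ear2, Atp6v0d2, Car4, Cd68, the keratins, S100a9 and Il1r2 were named after their values were seen.

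**Figure D2:**
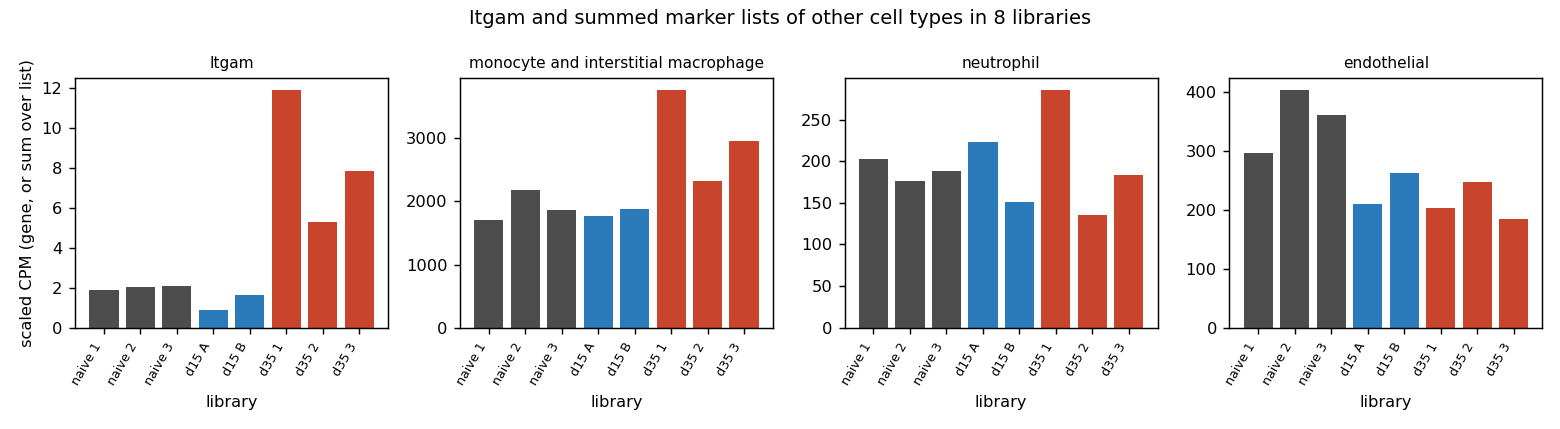
Scaled CPM of Itgam and summed scaled CPM of the monocyte and interstitial macrophage, neutrophil and endothelial marker lists (y axes, linear, from 0) in each of the 8 libraries, coloured by group. The d35 libraries rank alike (library 1, then 3, then 2) for Itgam, the monocyte and interstitial macrophage sum and the neutrophil sum. The neutrophil sum, led by Mmp8, is 136 to 285 at d35, a range that spans the naive one of 176 to 203. The endothelial sum is 184 to 247 at d35 against 297 to 402 in naive.

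Itgad, the CD11d gene, fell at d35. Its values were 36.0, 25.8 and 31.8 scaled CPM in naive, 21.4 and 28.9 at d15, and 10.3, 5.64 and 23.2 at d35. Every d35 library was below every naive one, but library 3, at 23.2, was close to the lowest naive value and within the d15 range. The means were 31.2 ± 5.12 (SD, n = 3), 25.2 ± 5.33 (n = 2) and 13.1 ± 9.11 (n = 3), which put the d35 mean 58.1% below the naive mean. The log2 difference from naive was -1.39 (SE 0.360, limma adjusted p = 0.0282). At d15 it was -0.30 (SE 0.402, limma adjusted p = 0.682), and d35 against d15 gave -1.09 (SE 0.402, limma adjusted p = 0.136), so neither passed.

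The Itgad call at d35 did not hold in every fit. The quasi-likelihood test of edgeR on the recovered reads gave -1.25 (adjusted p = 0.0545) and DESeq2 gave -1.26 (adjusted p = 0.0751). Without naive library 1, 2 or 3 or without d35 library 1, the limma adjusted p was 0.0882, 0.0668, 0.0756 and 0.0727, at log2 differences of -1.28, -1.51, -1.37 and -1.33. Without d35 library 3, the one nearest the naive libraries, the differences were -1.88 from naive (limma adjusted p = 0.00193) and -1.58 from d15 (limma adjusted p = 0.00739), so that the latter then passed. Itgad shares 9.47% of its 50-base stretches with Itgax and 22.04% with any other gene, and 4 gene models lie antisense within it, among them Cox6a2. Whether counting used the strand is not given in the sources used here, so reads of these genes and of Itgad cannot be told apart. Cox6a2 itself had at most 0.309 scaled CPM in any library.

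Itgal, the CD11a gene, fell at d15. It had 591, 600.5 and 548 scaled CPM in naive, 471 and 436 at d15, and 503, 549 and 486 at d35. Both d15 libraries were the lowest of the 8, while the highest d35 library lay just inside the naive range. The d15 mean of 454 ± 24.8 (SD, n = 2) was 21.8% below the naive mean of 580 ± 27.8 (n = 3), a log2 difference of -0.35 (SE 0.083, limma adjusted p = 0.0431). The d35 mean, 513 ± 33.0 (n = 3), was between them, at -0.18 from naive (SE 0.074, limma adjusted p = 0.123) and 0.17 from d15 (SE 0.083, limma adjusted p = 0.246). In the authors' deposited table for d15 against naive, Itgal had a log2 fold change of -0.37 and a false discovery rate of 0.00460, rank 175 of 10778 genes, of which 389 were below 0.05.

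With only 2 d15 libraries, the Itgal call rested on each of the naive and d15 libraries. Leaving out naive library 1, 2 or 3 gave -0.34, -0.33 and -0.39 (limma adjusted p = 0.0906, 0.142 and 0.0693). Without d15 library A the value was -0.41 (limma adjusted p = 0.124), and without library B it was -0.30 (limma adjusted p = 0.300). A correction for transcript length also ended the call, at -0.27 (limma adjusted p = 0.0625). None of the 50-base stretches of Itgal was shared with another gene. Endothelial markers were lower at d15 and d35 as well, with 3 of 13 tested markers falling at d15 and 8 at d35, where 2.00% and 6.32% of all tested genes fell. Their sum, led by Calcrl, was 297 to 402 in naive, 209 to 263 at d15 and 184 to 247 at d35, and their part in the Itgal values was not tested.

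Itgax, the CD11c gene, did not pass in any comparison. Its scaled CPM was 849, 845 and 830 in naive, 809 and 744 at d15, and 969, 920 and 818 at d35. The d15 libraries were the lowest, and the d35 libraries lay on either side of the naive ones. Means were 841 ± 9.83 (SD, n = 3), 777 ± 45.8 (n = 2) and 902 ± 77.1 (n = 3). The log2 differences were -0.12 for d15 (SE 0.088, limma adjusted p = 0.435) and 0.10 for d35 (SE 0.079, limma adjusted p = 0.422) from naive, and 0.21 between d35 and d15 (SE 0.088, limma adjusted p = 0.182).

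Itgb2, the gene of the shared CD18 chain, followed the same order of groups and also did not pass. It had 2399.6, 2292 and 2309 scaled CPM in naive, 2062 and 2012 at d15, and 2946, 2629 and 2218 at d35. The d15 libraries were again the lowest, and d35 library 3 was below all naive libraries while the other two were above them. The means were 2334 ± 57.7 (SD, n = 3), 2037 ± 35.4 (n = 2) and 2598 ± 365 (n = 3). From naive, the log2 differences were -0.20 for d15 (SE 0.117, limma adjusted p = 0.311) and 0.15 for d35 (SE 0.104, limma adjusted p = 0.363). Between d35 and d15 it was 0.34 (SE 0.117, limma adjusted p = 0.109), which passed with DESeq2 (0.36, adjusted p = 0.0121) and in limma without d35 library 3 (0.45, adjusted p = 0.0307).

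At d15, 1 of 5 members was called, against 4.37% of all tested genes in either direction, 2.37% up and 2.00% down. The d15 libraries of 4 of 5 members lay below all naive ones, Itgad being the exception, where 22.3% of tested genes did so. At d35 against naive, 2 of 5 were called, 1 up and 1 down, against 16.2% in either direction, 9.86% up and 6.32% down, and the same 2 did not overlap, against 36.7%. Between d35 and d15, 1 of 5 was called, upwards, against 7.39% in either direction, 4.59% up and 2.80% down, and 4 of 5 lay higher at d35 without overlap against 19.0%. The d15 and d35 comparisons share the naive libraries, and the last comparison shares both of its groups with the others. The authors' deposited table for d15 gave Itgb2 -0.22, Itgax -0.13, Itgad -0.33 and Itgam -0.65, with false discovery rates of 0.132, 0.606, 0.750 and 0.967.

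**Figure D3:**
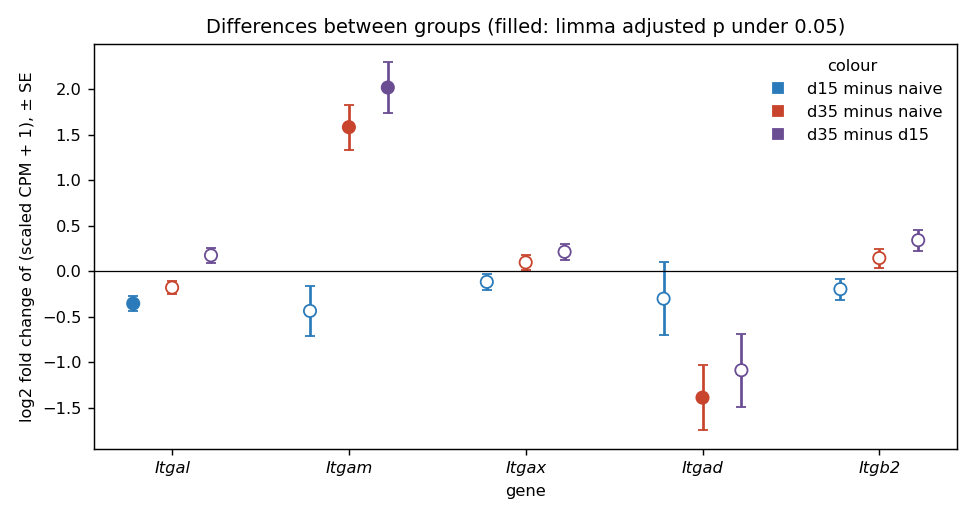
Difference of group means of log2(scaled CPM + 1) with its standard error (y axis) for each of the 5 genes (x axis), in 3 comparisons distinguished by colour. Filled symbols have a limma adjusted p under 0.05: Itgal at d15 (-0.35), Itgam at d35 against naive (1.58) and d15 (2.02), and Itgad at d35 against naive (-1.39).

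The make-up of the alpha chains was given per kilobase, as the percent of their sum in each library, with no test. Itgax held 63.6% ± 0.738 (SD, n = 3) of the sum in naive, 67.3% ± 0.510 (n = 2) at d15 and 68.3% ± 1.77 (n = 3) at d35. Its lowest share in a tumor-bearing library, 66.8%, was above its highest naive share, 64.4%. Itgal made up most of the remainder, with 33.0% to 34.8% in naive, 30.4% to 30.5% at d15 and 28.2% to 31.4% at d35. Itgad went from 2.32% ± 0.381 (n = 3) in naive to 1.01% ± 0.767 (n = 3) at d35, with 0.736%, 0.410% and 1.87% in the 3 d35 libraries. Itgam went from 0.130% ± 0.00946 (n = 3) to 0.545% ± 0.204 (n = 3), so even after its rise the CD11b message was under 1% of the alpha-chain signal in every library. These shares are of RNA and not of surface protein.

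The Itgam to Itgad ratio per kb was 0.0455, 0.0693 and 0.0570 in naive and 0.0354 and 0.0491 at d15. At d35 it was 1.01, 0.820 and 0.297, above every other library. Itgam and Itgad lie 35.9 kb apart, with Itgax between them. The sum of the alpha chains was 327 ± 7.53 scaled CPM per kb (SD, n = 3) in naive, 285 ± 14.6 (n = 2) at d15 and 326 ± 20.7 (n = 3) at d35. Itgb2 per kb was 2.40 ± 0.0593 times that sum in naive and 2.35 and 2.46 times at d15. In the d35 libraries it was 2.91, 2.64 and 2.47 times. Each was above the highest of the other groups, but library 3, at 2.469, only just exceeded d15 library B, at 2.464. A correction for transcript length took the d35 log2 difference from naive from 0.15 to 0.13 for Itgb2. It took that of Itgax from 0.10 to 0.14 and that of Itgal from -0.18 to -0.09. The ratio was not computed on corrected values.

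**Figure D4:**
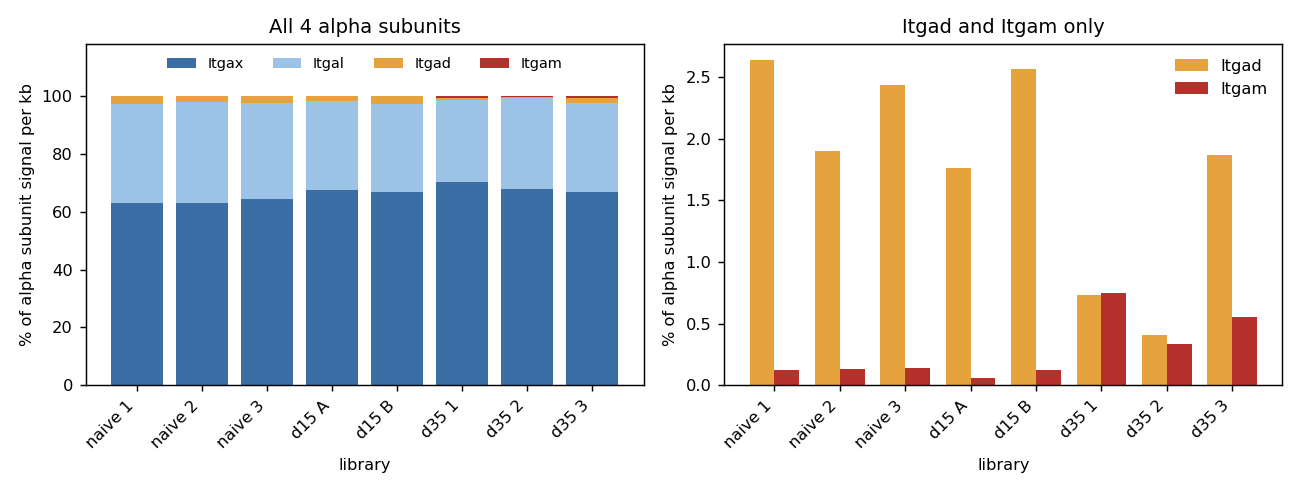
Percent of the summed alpha-chain signal per kilobase (y axis) in each of the 8 libraries (x axis), stacked for the 4 alpha-chain genes on the left and side by side for Itgad and Itgam on a smaller scale on the right. Itgam is at or below 0.139% in naive and d15 libraries and between 0.336% and 0.745% at d35, where it reaches or nears the Itgad share in libraries 1 and 2.

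Other genes were ranked by Pearson correlation with each member over the 8 libraries, among tested genes whose mean log2(value + 1) was 3 or more. The libraries fall into 3 groups and each supplies both genes of a pair, so these r values only describe the pattern. Nearest to Itgam were Aph1c, Cd300a, Sema4d, Mfge8 and Plpp2, with r from 0.979 to 0.987. Mfge8, which encodes a bridging protein for the uptake of dying cells, went from 20.4 in naive and 16.9 at d15 to 142 scaled CPM at d35, and Sema4d, a semaphorin, from 5.14 and 3.86 to 43.5. Nearest to Itgal were Htt, Sntb2, Acap1, Dennd4b and Sirpa (r from 0.973 to 0.989), and Sirpa, an inhibitory receptor for CD47, had means of 2762, 2165 and 2428 in naive, d15 and d35. For Itgad they were Mllt3, Kdm4c, Rad50, Epcam and Arid5b (r from 0.934 to 0.963).

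Itgax and Itgb2 were each the second most similar gene of the other, with r = 0.967 over 8 libraries. Lhfpl2 (r = 0.977) came before Itgb2 for Itgax, followed by Myo5a, Esyt1 and Atp6v1c1, and Exoc1 (r = 0.985) came before Itgax for Itgb2, followed by Cyp4v3, Rcbtb1 and Tm9sf4. The other alpha chains were less like Itgb2, with r = 0.743 for Itgam, 0.412 for Itgal and -0.664 for Itgad. Itgam and Itgad had r = -0.610, and Itgam and Itgal r = -0.031.

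Up to 3 genes of the table were read on either side of each member within 200 kb. Pycard, the adaptor of inflammasomes, rose from 25.3 ± 2.45 (SD, n = 3) to 36.5 ± 5.83 (n = 3) at d35 (limma adjusted p = 0.0233), where 9.86% of all tested genes rose. Among the reported genes outside the family, it alone passed in any comparison. Armc5, beyond Itgad, had 29.0, 24.9 and 26.9 in naive, d15 and d35 and did not pass in any comparison.

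Genes that work with the beta-2 integrins were read from lists chosen by role. The list counts below stand beside the shares that limma called over all tested genes. From naive, these were 2.37% up and 2.00% down at d15, and 9.86% up and 6.32% down at d35. Between d35 and d15 they were 4.59% up and 2.80% down. No test set the count of any list apart from these shares. Among the integrin alpha genes outside the family, 8 of 14 were tested, and at d35 Itga2, Itga3 and Itga5 rose and Itga6 fell. Itga2 reached the filter value of 1 scaled CPM only in d35 libraries, the group where it was high. At d15, limma and edgeR called 0 of 8, 1 had an unadjusted p under 0.05, and DESeq2 called that one, Itgav, lower. Itga5, the fibronectin receptor chain, with the highest mean of the list, had 196, 180 and 173 in naive, 167 and 146 at d15, and 221, 213 and 286 at d35, where every library exceeded the others (log2 difference from naive 0.38, SE 0.110, limma adjusted p = 0.0417). Itga3, a laminin receptor chain, rose from 1.57 ± 0.284 (SD, n = 3) to 4.24 ± 1.11 (n = 3), and Itga6, another one, fell from 37.3 ± 1.61 to 28.9 ± 3.32. The median log2 difference at d35 was -0.15 for the list and 0.00 for all tested genes.

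Of the other integrin beta genes, 5 of 7 were tested, and Itgb4 and Itgb6, which encode the epithelial partners of the alpha-6 and alpha-v chains, rose at d35. At d15, limma, edgeR and DESeq2 called 0 of 5, and 0 had an unadjusted p under 0.05. Itgb4 had 0.463 ± 0.257 scaled CPM (SD, n = 3) in naive and 2.16 ± 0.402 (n = 3) at d35, and Itgb6 0.105 ± 0.156 and 1.42 ± 0.5001. For Itgb4 and Itgb6, only d35 libraries reached the filter value of 1 scaled CPM. These genes were thus tested only through the group where they were high. Both rose alongside Krt8 and Krt18, whose values stand above, and the part of epithelial RNA was not tested. Itgb1, the gene of the beta-1 chain, which pairs with many alpha chains, had the highest mean of the list and did not pass, with 964 ± 23.04 (n = 3), 908 ± 14.3 (n = 2) and 876 ± 43.3 (n = 3).

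Among ligands of the beta-2 integrins, 12 of 21 were tested. Vcam1, an adhesion molecule bound by Itgad, had 0.958, 1.25 and 1.40 scaled CPM in naive, 2.46 and 4.17 at d15, and 25.2, 14.6 and 20.6 at d35. The groups followed one another without overlap, and d35 exceeded naive by 3.24 on the log2 scale (SE 0.216, limma adjusted p = 1.97e-05). C3, whose fragment is bound by Mac-1 and complement receptor 4, rose from 197 ± 38.5 (SD, n = 3) to 347 ± 86.2 (n = 3) (limma adjusted p = 0.0199). Icam1, the classic ligand of LFA-1, had 166 ± 12.9 in naive, 120 ± 33.8 (n = 2) at d15 and 195 ± 14.6 (n = 3) at d35, and passed between d35 and d15 (0.72, SE 0.144, limma adjusted p = 0.0149). Fcer2a and Tlr2 fell at d35, Fcer2a from 2.30 ± 1.30 to 0.449 ± 0.0759 and Tlr2 from 1246 ± 56.3 to 999 ± 31.2. Fcer2a reached the filter value of 1 scaled CPM only in naive libraries, the group where it was high. At d15, limma called 0 of 12 ligands, with 1 higher and 3 lower at an unadjusted p under 0.05. There, edgeR called Vcam1 higher, and DESeq2 called Vcam1 higher and Icam1, Fcer2a and Tlr2 lower.

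Integrins are opened from within by an activation machinery, of which 15 of 18 genes were tested. Rapgef1, an exchange factor for Rap1, fell from 40.6 ± 2.24 (SD, n = 3) to 27.7 ± 0.359 (n = 2) at d15 (limma adjusted p = 0.0161) and 28.7 ± 0.274 (n = 3) at d35 (limma adjusted p = 0.00460). Fyb, an adaptor of this machinery, rose at d35 with 6.89, 1.99 and 3.57 against 1.19, 1.49 and 1.04 in naive, and Fermt2, kindlin-2, fell from 4.05 ± 1.34 to 1.58 ± 0.715. The blood-cell kindlin Fermt3 and the talin gene Tln1 did not pass, with Fermt3 at 305, 284 and 320 and Tln1 at 468, 377 and 404 in naive, d15 and d35. Rap1b, a small GTPase that recruits talin and the gene of the list with the highest mean, had 948, 982 and 953 and did not pass. Rassf5, a Rap1 effector, was lower at d35 than at d15 (340 ± 35.2, n = 3, and 450 ± 20.2, n = 2; log2 difference -0.41, SE 0.093, limma adjusted p = 0.0252).

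Of 8 tested genes that restrain integrins, Dok2 and Itgb1bp1 rose and Flna fell at d35. At d15, limma, edgeR and DESeq2 each called 0 of 8, with 1 higher and 1 lower at an unadjusted p under 0.05. Dok2, an adaptor that can occupy the talin site on the beta tail, had 71.1, 78.6 and 74.9 in naive, 73.8 and 63.9 at d15, and 136, 94.1 and 127 at d35 (log2 difference from naive 0.65, SE 0.125, limma adjusted p = 0.00881). Flna, filamin A, fell from 2168 ± 151 (SD, n = 3) to 1601 ± 300 (n = 3).

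Downstream signalling had 18 of 18 genes tested. At d15, Fgr, Vav3 and Ptk2b fell. Fgr, a Src-family kinase used by beta-2 integrins, had 396 ± 20.2 (SD, n = 3) in naive and 274 ± 37.2 (n = 2) at d15 (limma adjusted p = 0.0218), and it was higher again at d35 than at d15 (375 ± 27.5, n = 3, limma adjusted p = 0.0199). At d35, Src, Tyrobp, Fcer1g and Rac2 rose and Cbl fell. The Src call was at the threshold (limma adjusted p = 0.0498) and held in 3 of 17 alternative fits, and d35 library 2, at 3.302 scaled CPM, was below naive library 2, at 3.62. Rac2, the blood-cell Rac, had 197, 198 and 200 in naive, 182 and 169 at d15, and 285, 251 and 306 at d35 (log2 difference from naive 0.49, SE 0.079, limma adjusted p = 0.00383). Tyrobp and Fcer1g, the adaptors through which these integrins engage Syk, went from 481 ± 24.9 to 653 ± 96.5 and from 436 ± 43.3 to 645 ± 138 (n = 3 each). A correction for transcript length ended both calls, taking the log2 difference of Tyrobp from 0.43 to 0.03 (limma adjusted p = 0.749) and that of Fcer1g from 0.55 to 0.18 (limma adjusted p = 0.130), and both were also lost without naive library 1 or 2. The list's median was -0.22 at d15 and -0.06 at d35, against 0.01 and 0.00 over all tested genes.

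Of the transcription factors known at beta-2 integrin promoters, 12 of 13 were tested. Spi1, the PU.1 gene, whose core sequence is in the Itgam run above, did not pass, with 581 ± 22.1 (SD, n = 3), 590 ± 16.6 (n = 2) and 599 ± 16.5 (n = 3) in naive, d15 and d35. Cebpb, the gene of the list with the highest mean, also did not pass, at 1844 ± 56.6 (n = 3), 1811 ± 63.7 (n = 2) and 1978 ± 459 (n = 3). Ets1 fell from 15.7 ± 4.46 (n = 3) to 6.12 ± 1.40 (n = 2) at d15 and 5.67 ± 0.795 (n = 3) at d35 (limma adjusted p = 0.0224 and 0.00327). The summed B-cell markers, led by Ms4a1, ran from 10.7 to 16.6 in naive, 5.56 to 5.66 at d15 and 3.83 to 7.33 at d35, the endothelial markers were lower as given above, and their part in the Ets1 values was not tested. Irf8 and Fli1 were higher at d35 than at d15, by 0.46 and 0.34 on the log2 scale (limma adjusted p = 0.0140 and 0.0400). Across the pathway lists, the calls at d35 against naive that held in every alternative fit were those of Itgb4, Vcam1, Rapgef1, Dok2, Cbl, Rac2 and Ets1, 7 of 22, although the length correction took Cbl from -0.52 to -0.26. Leaving out 1 library ended each of the other 15, and the length correction also ended those of Itga6, Flna, Itgb1bp1 and Src besides the adaptors above. Between d35 and d15, the calls of Vcam1 and Rac2 held throughout, 2 of 14. At d15, each of the 5 calls was lost without 1 library or another.

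**Figure D5:**
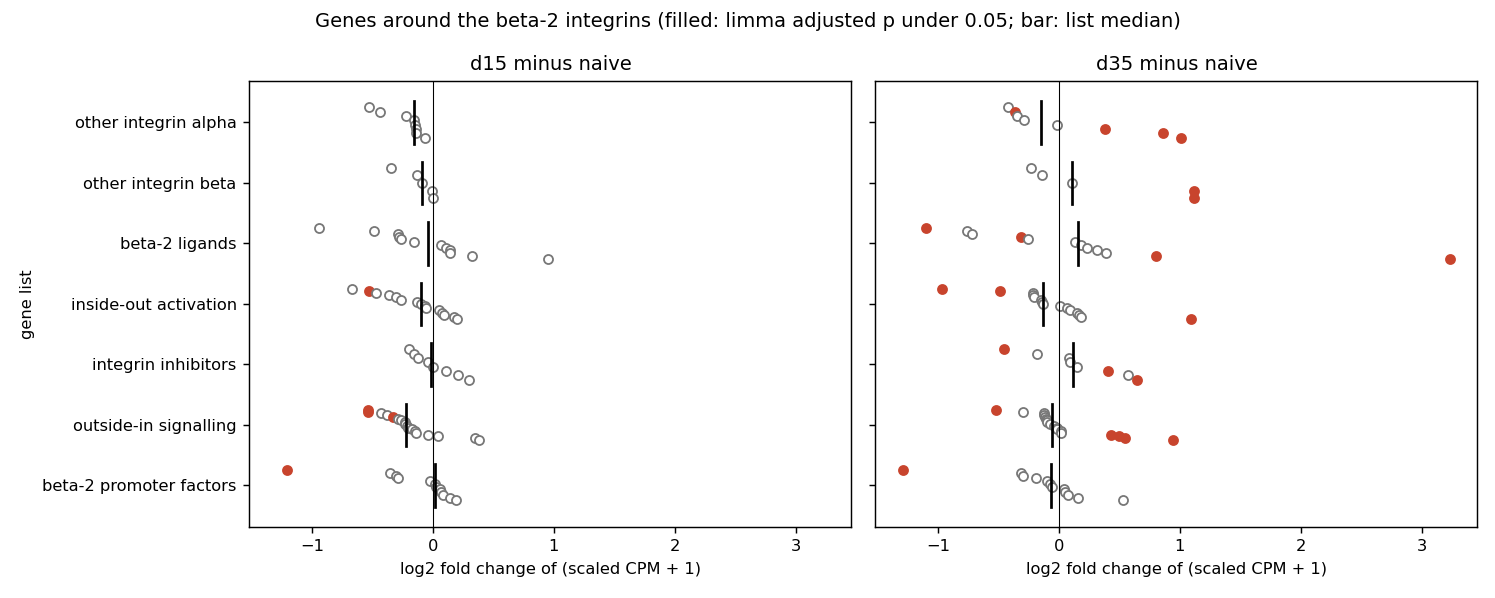
Log2 difference from naive (x axis, same scale in both panels) of each tested gene in the 7 lists of genes around the beta-2 integrins (y axis), at d15 on the left and d35 on the right. Each circle is a gene, red and filled where the limma adjusted p is under 0.05, and the black bar is the list's median; the right-most point at d35 is Vcam1 (3.24).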

How the data were processed

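Expression of sorted lung macrophages was analysed from the authors' deposited tables. STAR 2.5, mm10 and edgeR (no version) are named by the submitters' processing notes; the read counter, its annotation and its use of strand are not stated there. The deposited expression table holds a scaled signal per gene, called scaled CPM: each value is (reads + 0.5) over a scaled library size plus 1, and 100% of values gave whole reads within 0.001. Each gene had 41 or more reads in all. Per the file headers, the authors' deposited d15 table gives log2 fold changes, a likelihood-ratio statistic (a score) and p-values. The 2 d15 columns, numbered 2 and 3 where the titles have 1 and 2, were assigned to their group only, as libraries A and B.

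The planned log-scale test, limma 3.58.1 under R 4.3.3 with an intensity trend and the group as the only term, used log2(value + 1) in all 8 libraries. It covered 11273 genes that reached a value of 1 in 2 or more libraries, with Benjamini-Hochberg adjustment and calls at 0.05, and was tested on simulated data. Alternatives were edgeR 4.0.16 (quasi-likelihood), DESeq2 1.42.0 and limma-voom on the recovered reads, a pseudocount of 0.25, no filter, median-of-ratios rescaling, a length correction, only the compared groups, a replicate block and leaving out each library. The edgeR calls numbered 417 for d15 against naive, 1760 for d35 against naive and 827 for d35 against d15. The alternative fits for pathway-list genes were added after seeing the data.

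GENCODE M21 matched 12639 of the symbols and gave positions, lengths and shared 50-base stretches; RefSeq (GRCm38.p6) promoters matched Itgam and Itgax. The members and lists were chosen with earlier results of these data known. The text names all members, the called genes of each pathway list (at most 3 per comparison where over 5 were called), the gene with the highest mean of each list, markers not in the table, the 5 genes most correlated with each member and nearby genes; a listed gene and a nearby gene are not reported here and are left out of the list counts and sums.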

Additional observations from a re-analysis of the deposited data

Results flagged for a closer look

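The d35 effect differed from the d15 effect, by the limma test of d35 against d15, for 1 member, 14 genes of the pathway lists and 5 markers of other cells named in the text. Genes named for their correlation with a member were not considered unless they are also listed markers. Alveolar macrophage markers are outside this count, and of those named, Pparg and Atp6v0d2 were lower and Cd68 higher at d35 than at d15. On the log2 scale the difference was 2.02 for Itgam. Among other integrin genes it was 1.54 for Itga3, 1.02 for Itga2, 0.60 for Itga5, 1.12 for Itgb4 and 1.12 for Itgb6, and among ligands 2.29 for Vcam1 and 0.72 for Icam1. In the activation, restraint and signalling lists it was 1.36 for Fyb, -0.41 for Rassf5, 0.77 for Dok2, 0.46 for Fgr and 0.67 for Rac2. Among the promoter factors it was 0.46 for Irf8 and 0.34 for Fli1. Among the markers it was 1.36 for Ccr2, 3.46 for C1qb, 3.56 for Krt8, 3.56 for Krt18 and -0.82 for Epcam, an epithelial adhesion gene that is also in the correlation ranking of Itgad. Itga2, Itgb4 and Itgb6 passed the filter on low values only through their d35 libraries.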

How the results depend on the processing

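No alternative turned the sign of any of the 5 members in any comparison. The Itgam calls held in 17 of 17 alternatives against naive (log2 1.32 to 2.07) and 16 of 16 against d15 (1.75 to 2.76). The Itgal fall at d15 held in 10 of 16; it was lost with the length correction (-0.27, limma adjusted p = 0.0625) and when any naive or d15 library was left out (-0.41 to -0.30). The Itgad fall at d35 held in 11 of 17; it was lost with edgeR (-1.25) and DESeq2 (-1.26) and, among fits that left out a library (-1.88 to -0.95), without naive 1, 2 or 3 or d35 1. Between d35 and d15, Itgad passed without d35 library 3 (-1.58, range over left-out libraries -1.58 to -0.65), and Itgb2 passed with DESeq2 (0.36) and without d35 library 3 (0.45, range 0.25 to 0.45). The causes were not tested. Genes called at d15 numbered 493 and came to 1451 with DESeq2, 1179 with the 2 groups alone and 11 (without d15 library B) to 1084 (without d35 library 3) when a library was left out. At d35 against naive, 1824 became 1205 with the length correction and 628 (without naive library 2) to 2288; between d35 and d15, 833 became 1368 with DESeq2, 421 with the 2 groups alone and 184 (without d15 library B) to 1046. Without division by length, Itgal held 39.9%, 36.1% and 35.7% and Itgax 57.9%, 61.8% and 62.8% of the alpha-chain sum in naive, d15 and d35. Same-numbered naive and d35 libraries deviated with correlations of -0.0071, -0.046 and 0.147, and unlike-numbered ones with correlations from -0.100 to 0.103. With 3 libraries in each of these groups, such values cannot tell whether the numbers pair the libraries. A fit of naive and d35 with the replicate number as a block called 1460 genes and left the calls of all 5 members as they were (Itgam 1.58, adjusted p = 0.0108; Itgad -1.39, adjusted p = 0.0230). No paired analysis was possible because the d15 columns carry other numbers than the d15 titles, for the comparisons with d15. Depth limited Itgam most, which had 26 to 342 reads per library.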
